A study of Mus musculus with 24 samples.

Results

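The genes described here are those that build and mineralise bone matrix in osteoblasts and osteocytes. The list held 10 genes, named by symbol, and each was read from the probe sets that the platform annotation assigns to that symbol alone. For 8 of them a named probe set was found (Sp7, Alpl, Ibsp, Dmp1, Phex, Ifitm5, Omd and Panx3), with 14 probe sets in all, and Runx2 and Spp1 were not analysed here. Where a gene had several, its brightest probe set on average gave its value. All 8 were above the median of the array in all 24 arrays, so all 8 were among the 12811 genes tested, of 18193 genes with a probe set of their own.

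The arrays measured RNA from jaws of C57B6 mouse embryos at embryonic day 14.5. Mutants came from crosses of Wnt1cre;Tgfbr2fl/+ mice with Tgfbr2fl/fl mice and were told apart by their cleft palate and defective calvaria. Controls were littermates whose exact alleles the labels do not give, so some may carry Cre or a floxed allele. Wnt1-Cre acts in neural crest cells, so that skeletal muscle fibres, the endothelium of vessels and osteoclasts, which do not descend from the crest, keep the receptor. The 8 groups of 3 arrays were mutant and control distal mandible, mutant and control proximal mandible, mutant and control distal maxilla, and mutant and control proximal maxilla, and the labels call each piece bone. The labels do not say whether the arrays of a group came from separate embryos, so p-values cover only the spread among these samples, and that spread may be technical.

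Facial bone forms without a cartilage template: neural crest cells become osteoblasts, which lay down a collagen matrix and then mineralise it. Sp7, also called osterix, is a zinc finger transcription factor without which osteoblasts do not form, and it acts after Runx2. Tissue-nonspecific alkaline phosphatase, from Alpl, splits pyrophosphate, an inhibitor of mineral growth. Ibsp (bone sialoprotein) and Dmp1 (dentin matrix protein) are acidic phosphoproteins of the mineralising matrix, and osteomodulin, from Omd, is a small leucine-rich proteoglycan of bone. Phex is a membrane endopeptidase of osteoblasts and osteocytes whose loss causes X-linked hypophosphataemia, and Dmp1 and Phex both rise as osteoblasts become osteocytes. Ifitm5 encodes a small membrane protein of osteoblasts, mutated in a form of human brittle bone disease, and Panx3 encodes a channel of osteoblasts and hypertrophic chondrocytes.

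Because the genes moved together across the jaw pieces, the stretch of 250 bases before the start site is shown for 4 of them: Phex and Dmp1, which ranged most between group means, Ibsp, the neighbour of Dmp1 on chromosome 5, and Ifitm5, for the membrane proteins. In the RefSeq gene table (GRCm38.p6) only the long noncoding RNA gene Gm31048 is listed between Dmp1 and Ibsp. RefSeq promoters were found for 6 of the 8 measured genes, in 8 windows since Alpl and Dmp1 have 2 starts each. Sequences are from GRCm38.p6, written 5′ to 3′ on the strand of the gene. Capitals mark 4 motifs searched on both strands: the runt domain site ACCACA, the homeodomain site TAATTA, the TATA box TATAAA and the CCAAT box. The Dmp1 window lies at chr5:104202367-104202616 on the plus strand, the Ibsp window at chr5:104299037-104299286 on the plus strand, the Phex window at chrX:157415287-157415536 on the minus strand and the Ifitm5 window at chr7:140950244-140950493 on the minus strand.

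Dmp1: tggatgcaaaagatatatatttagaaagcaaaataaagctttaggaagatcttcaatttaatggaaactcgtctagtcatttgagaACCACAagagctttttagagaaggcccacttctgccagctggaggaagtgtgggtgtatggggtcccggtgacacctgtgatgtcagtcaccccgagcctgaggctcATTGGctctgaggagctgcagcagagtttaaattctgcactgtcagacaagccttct
Ibsp: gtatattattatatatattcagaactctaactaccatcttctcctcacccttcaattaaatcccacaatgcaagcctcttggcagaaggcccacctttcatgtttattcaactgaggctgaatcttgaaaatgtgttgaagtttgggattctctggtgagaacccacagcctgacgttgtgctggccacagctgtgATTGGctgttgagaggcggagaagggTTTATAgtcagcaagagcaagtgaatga
Phex: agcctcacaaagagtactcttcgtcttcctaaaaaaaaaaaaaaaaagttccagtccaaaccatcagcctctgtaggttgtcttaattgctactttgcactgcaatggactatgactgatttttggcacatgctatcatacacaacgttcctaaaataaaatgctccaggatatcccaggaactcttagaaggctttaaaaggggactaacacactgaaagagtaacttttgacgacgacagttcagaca
Ifitm5: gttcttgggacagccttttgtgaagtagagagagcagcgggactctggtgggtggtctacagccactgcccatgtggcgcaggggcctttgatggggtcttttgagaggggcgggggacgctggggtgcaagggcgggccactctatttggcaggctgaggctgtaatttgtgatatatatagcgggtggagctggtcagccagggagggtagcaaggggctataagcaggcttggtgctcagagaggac

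The Dmp1 window shown held ACCACA with its first base at −164 and an inverted CCAAT box (ATTGG) at −57. The other Dmp1 window, not shown, held an inverted CCAAT box at −101 and no ACCACA. The Ibsp window held an inverted CCAAT box at −54 and the letters TTTATA, the reverse of the TATA box, at −28. The Phex and Ifitm5 windows shown held none of the 4 motifs as spelled. Among all 32851 promoter windows of that length, 14.05% held the runt domain site, 4.84% the homeodomain site, 12.37% the TATA box and 33.85% the CCAAT box. In the 8 windows of these genes the counts were 1, 0, 2 and 3. These matches describe letters in a window and do not show binding.

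Array medians lay between 6.93 and 7.0 (log2), and the number of arrays limits the precision. Mutant distal maxilla 1 and mutant proximal maxilla 3 stood apart from their group mates, with root mean square distances of 0.55 each, against 0.18 to 0.37 for the other arrays. Hand2, a transcription factor of the lower jaw, was at 12.7 ± 0.291 and 12.4 ± 0.194 in mutant and control distal mandibles, and at 6.13 ± 1.12 and 5.53 ± 0.117 in mutant and control distal maxillae (SD, n = 3 each), which fits the jaw labels. The deleted gene Tgfbr2 averaged 12.3 to 12.4 in the mutant groups and 11.6 to 12.1 in the control groups. The sources used here do not give the deleted exon, so this signal does not check the genotype labels. The bone collagen genes Col1a1 and Col1a2 were bright in all 8 groups, with means of at least 11.7 for Col1a1 and 14.3 for Col1a2. Col10a1 (hypertrophic cartilage), Dspp (dentin) and Fgf23 (osteocytes) were above the array median in 0 of 24 arrays, the osteocyte gene Sost in 1 and Mepe in 2. The other 7 of 10 listed osteocyte genes were bright enough to be tested. Since each array pools the cells of a piece, fewer cells of a type and less RNA per cell cannot be told apart.

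All 8 genes were highest in the proximal mandible, where the mutant mean lay above the control mean. Sp7 averaged 11.8 ± 0.103 in mutant and 11.7 ± 0.224 in control proximal mandibles, and Dmp1 13.3 ± 0.238 and 12.6 ± 0.453 (SD, n = 3 each). For Sp7, Ibsp, Ifitm5, Omd and Panx3 every one of the 6 proximal mandible arrays exceeded all 18 arrays from other regions. For Alpl, Dmp1 and Phex 1 of the 18 others, a mutant distal maxilla array each time, reached above the lowest proximal mandible array: 12.03 against 11.98 for Alpl, 12.49 against 12.19 for Dmp1, and 11.02 against 11.01 for Phex. Group means spanned 3.32-fold for Ibsp, 4.09-fold for Alpl, 4.77-fold for Sp7, 6.97-fold for Ifitm5, 7.36-fold for Omd, 7.91-fold for Panx3, 12.5-fold for Dmp1 and 16.9-fold for Phex. On these probe sets Phex and the matrix protein Dmp1 ranged most. The low span of Ibsp belongs to its brighter probe set, since its dimmer one had group means of 10.6 to 13.6.

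Below the proximal mandible the order differed between genes. The next highest mean was that of the mutant distal maxilla for Alpl, Ibsp, Dmp1, Phex and Ifitm5, and that of the control distal mandible for Sp7, Omd and Panx3. The lowest mean was in the mutant proximal maxilla for Sp7, Alpl, Ibsp, Omd and Panx3, in the mutant distal mandible for Dmp1 and Phex, and in the control proximal maxilla for Ifitm5. Within a region no difference between mutant and control means passed the test described below. The differences between the 8 groups made up 65.9% of the variance over arrays for Ibsp, 83.4% to 86% for Dmp1, Phex and Ifitm5, and 91.0% to 92.4% for Sp7, Alpl, Omd and Panx3, against a median of 59.6% over all genes tested.

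**Figure D1:**
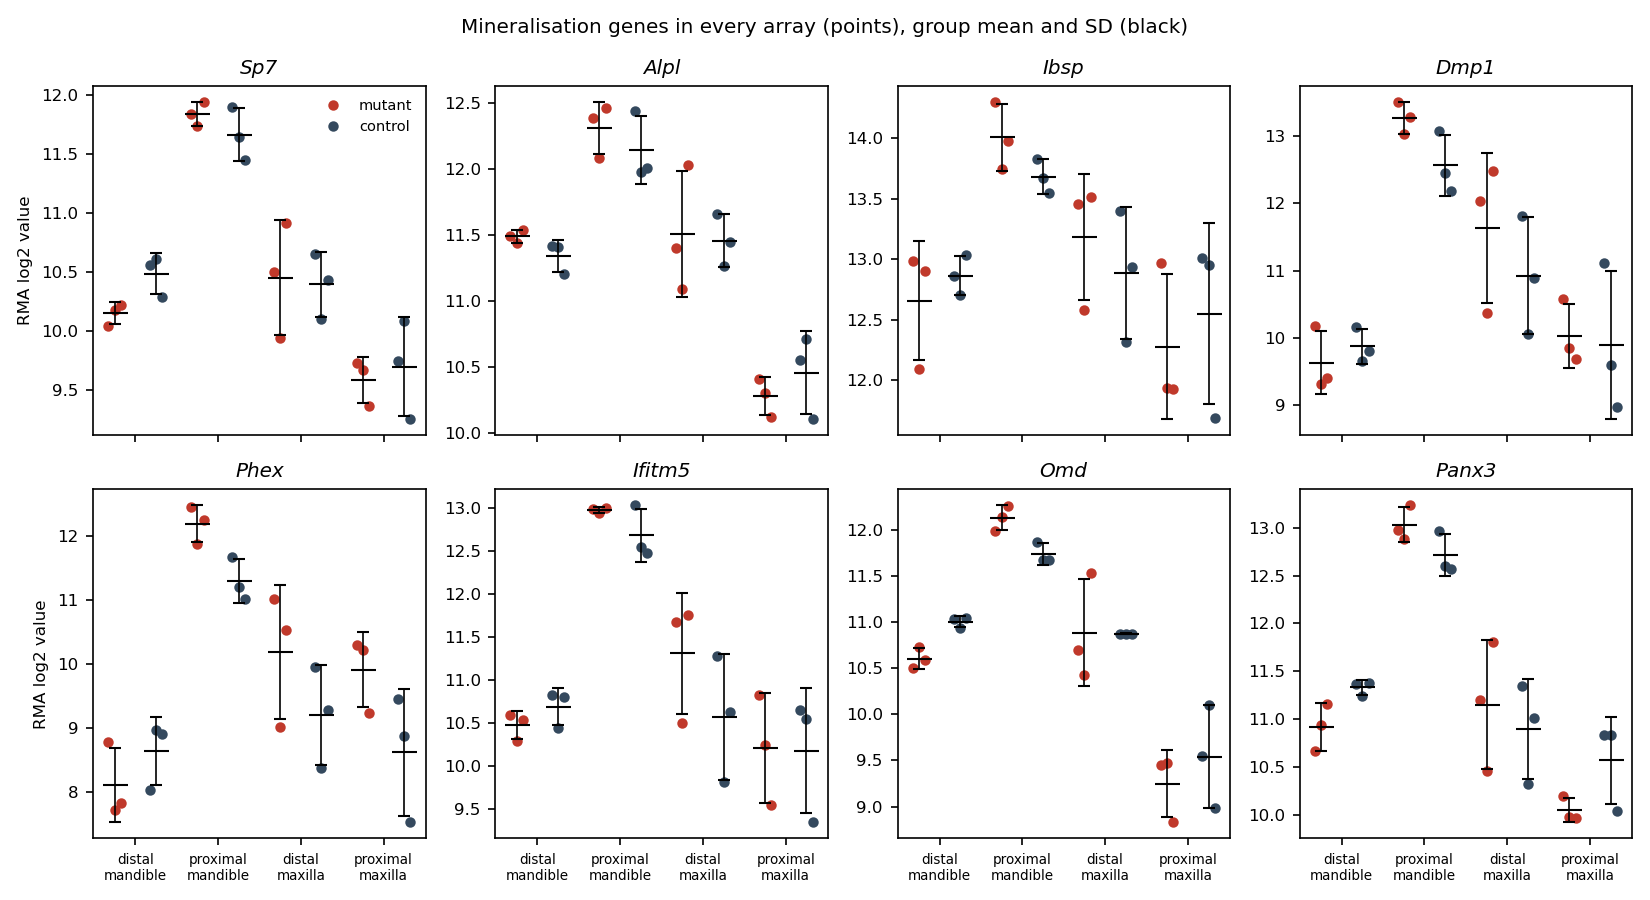
Log2 value of each of the 8 mineralisation genes in every array (points, mutant in red left of control in blue), by region, with the group mean and SD in black (n = 3 arrays). All 8 genes peak in the proximal mandible.

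In control jaws the question was where along the jaw these genes were expressed. In the mandible, 6 of the 8 genes fell in the distal end relative to the proximal end and 0 rose (limma, adjusted p under 0.05), while 5.78% of all genes tested passed and 3.34% were lower. That share depended on single arrays: without control proximal mandible 1 it came to 303 in place of 740 genes. With the replicate number as a block, which pairs these pieces, 1193 genes passed over the whole array and again 6 of the 8. Dmp1 read 10.16, 9.65 and 9.81 in control distal mandibles, against 13.07, 12.45 and 12.19 in control proximal mandibles. Phex read 8.04, 8.98 and 8.91 in distal ends, against 11.67, 11.21 and 11.01 in proximal ends. Both genes were thus lower in every distal array than in any proximal one. The differences were −2.70 ± 0.54 for Dmp1 (6.48-fold lower, adjusted p = 0.00569, limma) and −2.65 ± 0.53 for Phex (6.29-fold lower, adjusted p = 0.00565, limma), with the SE of the fit.

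The membrane genes and the early genes fell by less. Ifitm5 read 10.82, 10.44 and 10.80 in control distal mandibles, against 13.04, 12.54 and 12.47 in control proximal mandibles, a difference of −2.0 ± 0.40 (3.99-fold lower, limma adjusted p = 0.00531). Panx3 stood at −1.38 ± 0.29 (adjusted p = 0.00709), Sp7 at −1.18 ± 0.22 (adjusted p = 0.00314) and Alpl at −0.80 ± 0.20 (adjusted p = 0.0213, limma). The Alpl call was lost without control distal mandible 1 (adjusted p = 0.0543), control distal mandible 3 (0.0977) or control proximal mandible 1 (0.133, limma). The matrix genes Ibsp (−0.82 ± 0.37, adjusted p = 0.251) and Omd (−0.73 ± 0.25, adjusted p = 0.0991) did not pass in limma. With only the 6 control mandible arrays in the fit both passed, at adjusted p = 0.014 for Ibsp and 0.00632 for Omd (limma). The distal and proximal values did not overlap for any of the 8, as for 28.4% of all genes. The median over the 8 was −1.28, against 0.00 over all genes tested.

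In the control maxilla the genes lay the other way, though the difference between the jaws in this respect was not tested. Of the 8 genes 2 rose in the distal end relative to the proximal end and 0 fell, where 8.42% of all genes passed and 5.09% were higher (1079 genes in all, and 116 without control distal maxilla 2). Omd read 10.87, 10.87 and 10.86 in control distal maxillae, against 9.54, 10.10 and 8.99 in control proximal maxillae, which is 1.33 ± 0.25 higher (2.51-fold, adjusted p = 0.00579, limma). Alpl read 11.66, 11.26 and 11.44 in distal ends, against 10.55, 10.71 and 10.10 in proximal ends, a difference of 1.00 ± 0.20 (2.00-fold, limma adjusted p = 0.00699). With only these 6 arrays in the fit neither passed, at adjusted p = 0.0575 for Omd and 0.0521 for Alpl (limma). Sp7 did not overlap either and stood at 0.70 ± 0.22 (limma adjusted p = 0.0529), and it passed with the replicate number as a block (adjusted p = 0.0466), which pairs these pieces and gave 1729 in place of 1079 genes over the array. Those 3 genes were without overlap, against 32.7% of all genes. The other 5 ranged between 0.33 and 1.03 and overlapped, Dmp1 among them (1.03 ± 0.54, adjusted p = 0.285, limma). The median over the 8 was 0.64, against 0.02 over all genes.

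Between the distal ends of the control mandible and maxilla no difference passed. The count was 0 of 8 (limma adjusted p under 0.05), where 8.81% of all genes passed (1129 genes, and 389 without control distal maxilla 3). At an unadjusted p under 0.05 it was 0 of 8 as well, where 3124 of all genes tested passed. Differences ran from −1.05 ± 0.54 for Dmp1 (95% interval −2.18 to 0.09) to 0.44 ± 0.29 for Panx3 (−0.16 to 1.04), and the median was 0.04, against −0.01 over all genes. Omd was the single gene without overlap, as for 33.8% of all genes, at 11.03, 10.93 and 11.05 in control distal mandibles, against 10.87, 10.87 and 10.86 in control distal maxillae.

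Between the proximal ends, all 8 genes rose in the control mandible relative to the control maxilla. These arrays also entered the comparisons of ends above. On the same comparison 33.6% of all genes passed and 16.6% were higher, so many other genes moved too. The differences were 2.68 ± 0.54 for Dmp1 (6.40-fold), 2.67 ± 0.53 for Phex (6.39-fold), 2.51 ± 0.40 for Ifitm5 (5.68-fold), 2.19 ± 0.25 for Omd (4.58-fold) and 2.15 ± 0.29 for Panx3 (4.42-fold). Sp7 stood at 1.97 ± 0.22 (3.91-fold, limma adjusted p = 7.25e-06), Alpl at 1.69 ± 0.20 (3.22-fold, adjusted p = 1.05e-05) and Ibsp at 1.13 ± 0.37 (2.19-fold, adjusted p = 0.0239). The Ibsp call was lost without control proximal maxilla 3 (0.70, limma adjusted p = 0.16), control proximal mandible 1 (adjusted p = 0.0775) or control proximal mandible 2 (adjusted p = 0.0527). These values belong to its brighter probe set, and the dimmer one gave 2.47 over all arrays (limma adjusted p = 0.000695). In Ibsp, control proximal maxilla 3 was low, at 11.69, against 13.01 and 12.95 in its group mates. None of the 8 overlapped between these groups, as for 51.7% of all genes, and the median was 2.17, against 0.02 over all genes.

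**Figure D2:**
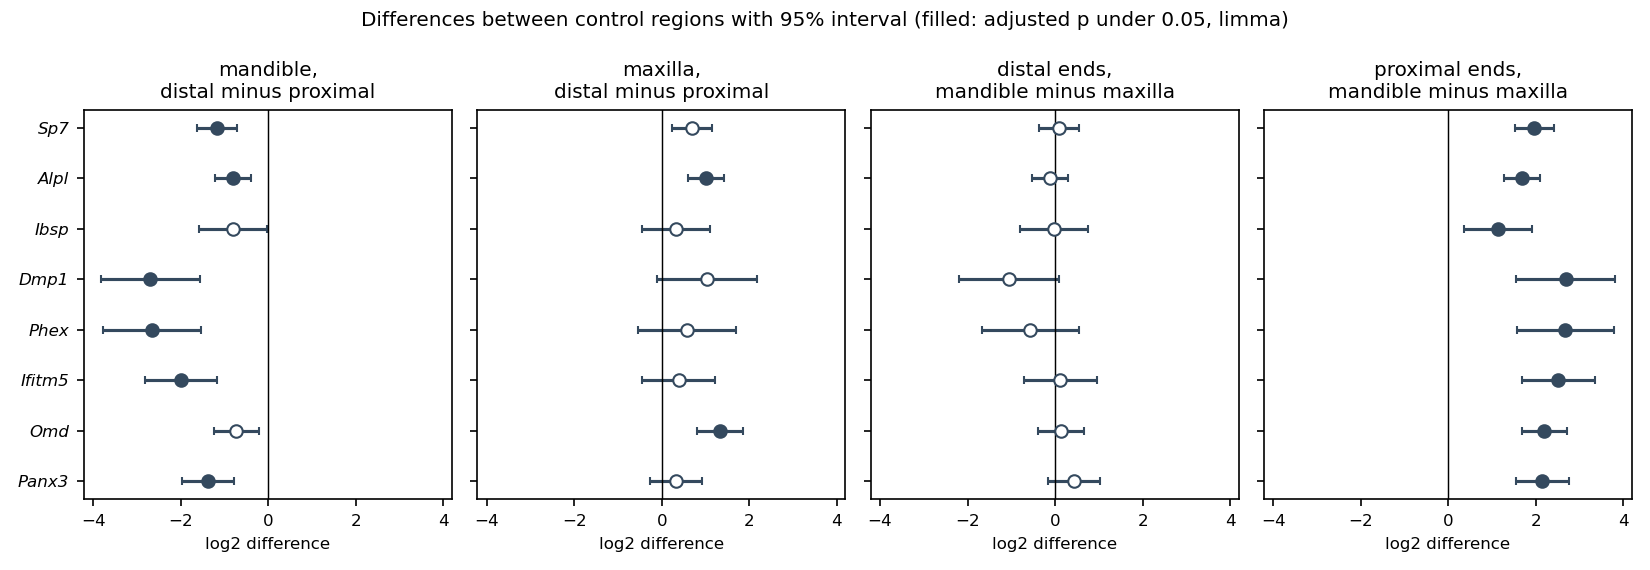
Log2 difference of each gene between control regions with its 95% interval (limma, n = 3 arrays per group, filled where the adjusted p was under 0.05). The genes lie below 0 in the mandible end comparison, above 0 in the maxilla end comparison and between the proximal ends, and on both sides of 0 between the distal ends, from −1.05 for Dmp1 to 0.44 for Panx3.

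Other bone genes are read against the 33.6% of all genes that passed between the proximal ends and the 16.6% that were higher. Between the proximal ends of control jaws, 16 of 20 other bone matrix genes rose and 0 fell, with a median of 0.75. Among them were the collagenase gene Mmp13 (3.38, limma adjusted p = 0.00601), Smpd3, a sphingomyelinase needed for matrix mineralisation (1.96), Tmem119, a membrane protein of osteoblasts (1.71), and Creb3l1, a transcription factor of collagen secretion (1.71). Of 12 genes for phosphate, pyrophosphate and calcium handling 6 rose, among them the sodium-calcium exchanger gene Slc8a3 (1.99), the amino acid transporter gene Slc36a2 (1.95) and the parathyroid hormone receptor gene Pth1r (1.5), while Entpd5 fell (−1.67, limma adjusted p = 0.000493). Of 7 osteocyte genes 4 rose, including Tnfsf11, the osteoclast differentiation factor (2.29), and the Wnt antagonist Dkk1 (1.85). Among 15 transcription factor genes outside the list, not all of them specific to osteoblasts, 6 rose and 3 fell, with Mef2c at 1.35, Ebf2 at −1.77, Foxc1 at −1.27 and Sox9 at −1.22. Of 23 genes for ligands and receptors that act on osteoblasts 10 rose and 4 fell, led by Tgfb1 (1.46), the hedgehog ligand Ihh (1.23), Wif1 (1.13) and Ptch1 (1.08).

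Along the control mandible, where 5.78% of all genes passed, these lists moved as follows. Of the 20 matrix genes 10 fell in the distal end and 0 rose, among them Kazald1 (−1.49), Smpd3 (−1.22), Creb3l1 (−1.22) and the type I collagen gene Col1a1 (−1.20, limma adjusted p = 0.0265). Of the 12 mineral handling genes 5 fell, led by Slc36a2 (−1.79), Slc8a3 (−1.42) and the vitamin D receptor gene Vdr (−1.0). Dkk1 alone fell among the 7 osteocyte genes (−1.26). Of the 15 transcription factor genes Msx2 rose (1.60, adjusted p = 0.0382), while Dlx6 (−0.98) and Mef2c (−0.50) fell (limma). Of the 23 signalling genes Tgfb1 (−1.0), Ihh (−0.78) and Lrp5 (−0.56) fell and Tgfb2 rose (0.32). Along the control maxilla 8.42% of all genes passed and 5.09% were higher in the distal end. There 4 of 20 matrix genes rose and 1 fell, with Tnc at 1.22 and Cthrc1 at −0.48 (limma). Of the 12 mineral handling genes Pth1r rose (0.69) and none fell. Of the 7 osteocyte genes 3 rose and 0 fell (median 0.93). Of the 15 transcription factor genes 5 rose and 2 fell, and of the 23 signalling genes 7 rose and 1 fell (limma). These lists were drawn up with earlier results of these data known.

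The pieces also differed in other tissues. Averaged over 10 olfactory and nasal markers, with each gene centred on all arrays, the list mean was −1.27 to −1.0 in control proximal mandibles and 2.69 to 2.82 in control proximal maxillae, and all 10 were lower in the mandible. For 19 skeletal muscle markers it was 0.79 to 2.24 and −1.99 to −0.80, and all 19 were higher in the mandible. All 6 osteoclast markers tested were higher there too, with list means of 0.56 to 1.15 and −1.50 to −0.65. The bone-resorbing cells they mark (Acp5 2.52, Mmp9 2.10, Atp6v0d2 2.53) are of blood origin. Of 16 cartilage markers 1, Sox5, was lower (−1.81, limma adjusted p = 0.0321). All 4 hypertrophic cartilage markers tested (Ihh, Pth1r, Mmp13 and Slc20a1) were higher in the mandible (median 1.36). All 4 also stand in the bone lists above, and the more specific Col10a1 was too dim to be tested. Of 6 tooth germ markers 5 were higher in the mandible (median 2.16). Of 9 endothelial markers 4, of 6 tendon markers 3 and of 10 macrophage markers 2 were higher, with 0 lower in each list. All 8 neuron markers were lower, and of 11 epithelial markers 2 were higher and 5 lower. Of all genes 33.6% passed in this comparison. Within the control mandible, distal and proximal ends overlapped in muscle (0.80 to 1.63 and 0.79 to 2.24) and nasal list means (−1.25 to −1.11 and −1.27 to −1.0). Osteoclast list means there were 0.06 to 0.27 in distal and 0.56 to 1.15 in proximal ends, with 0 of 6 genes past the threshold (limma). At an unadjusted p under 0.05 it was 4 of 6, where 2245 of all genes tested passed. Epithelial list means did not overlap, at −0.39 to 0.71 in distal and −1.42 to −0.82 in proximal ends, and 5 of 11 epithelial markers were higher in the distal end (Cdh1 1.30, Krt14 1.65). Of 4 hypertrophic cartilage markers 2, Ihh and Pth1r, were lower there, and both also stand in the bone lists. Tooth list means were 0.23 to 0.31 in distal and 0.60 to 0.74 in proximal ends. Along the control maxilla epithelial list means were 0.74 to 0.95 in distal and −0.70 to 0.63 in proximal ends, with 6 of 11 markers higher, and nasal list means were 0.35 to 2.13 and 2.69 to 2.82, with 1 of 10 lower. The part of these tissues in the differences between regions was not tested.

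The study's main comparison asked what loss of the receptor in the crest changed. No mineralisation gene passed in any region in the fit of all arrays, though Phex in the proximal maxilla did under some alternatives given below: 0 of 8 in the distal maxilla, where 0.195% of all genes passed, 0 of 8 in the proximal maxilla (23.3%), 0 of 8 in the distal mandible (0.742%) and 0 of 8 in the proximal mandible (4.34%). In the average of the 4 regions it was 0 of 8 as well, where 1.09% of all genes passed (limma). At an unadjusted p under 0.05 the count was 1 in the proximal maxilla and 1 in the average, Phex both times, and 0 elsewhere. Of all genes tested, 4455 passed at that unadjusted level in the proximal maxilla and 2138 in the average. In the distal maxilla, distal mandible and proximal mandible 1177, 1620 and 2492 did. With the replicate number as a block, which pairs the mandible pieces, the counts over the array were 354 in place of 95 genes in the distal mandible and 1356 in place of 556 in the proximal mandible, and none of the 8 was among them. Without single arrays the lowest counts were 35 in the distal mandible (without mutant distal mandible 1), 125 in the proximal mandible (without control proximal mandible 3), 7 in the distal maxilla (without control distal maxilla 3) and 1363 in the proximal maxilla (without mutant proximal maxilla 1).

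**Figure D3:**
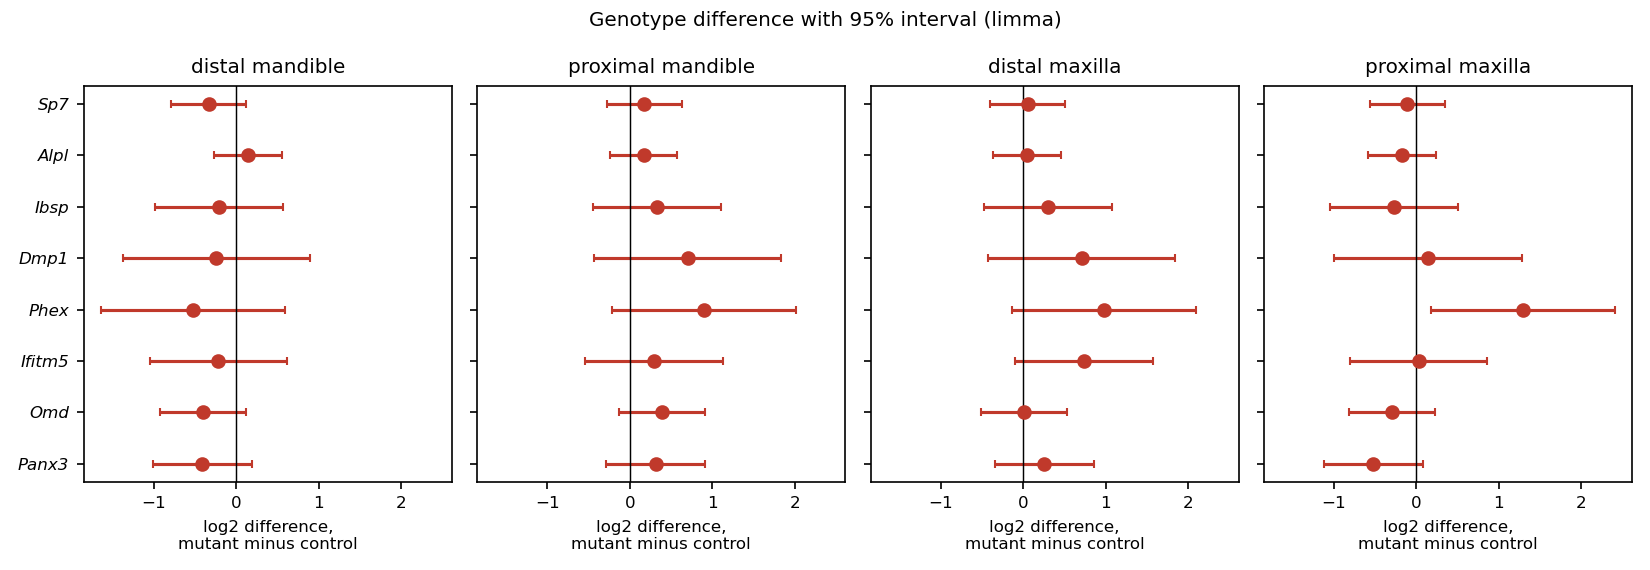
Log2 difference, mutant minus control, of each gene in each region with its 95% interval (limma, n = 3 arrays per group). The 8 values lie above 0 in the proximal mandible and the distal maxilla, and all intervals cross 0 except that of Phex in the proximal maxilla.

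In the proximal mandible the signs were the same for all 8, mutant above control, with a median of 0.32 against −0.04 over all genes. Phex read 12.45, 11.88 and 12.25 in mutant proximal mandibles, against 11.67, 11.21 and 11.01 in control proximal mandibles, which is 0.90 ± 0.53 (95% interval −0.22 to 2.01, limma adjusted p = 0.375). Omd read 11.99, 12.14 and 12.26 in mutants, against 11.87, 11.67 and 11.67 in controls, which is 0.39 ± 0.25 (−0.13 to 0.91, limma adjusted p = 0.411). Those 2 genes did not overlap between genotypes, as for 24.2% of all genes, and the other 6 did. Dmp1 read 13.50, 13.03 and 13.29 in mutants, against 13.07, 12.45 and 12.19 in controls (0.70 ± 0.54, interval −0.43 to 1.84). Sp7 and Alpl were closest, at 0.18 (−0.28 to 0.63) and 0.17 (−0.24 to 0.58), and Ibsp, Ifitm5 and Panx3 lay between 0.29 and 0.33.

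In the distal mandible the signs ran the other way for 7 of the 8, with a median of −0.29 against 0.03 over all genes. Sp7 read 10.05, 10.18 and 10.22 in mutant distal mandibles, against 10.56, 10.61 and 10.29 in control distal mandibles, which is −0.34 ± 0.22 (95% interval −0.79 to 0.12, limma adjusted p = 0.559). Omd read 10.50, 10.72 and 10.59 in mutants, against 11.03, 10.93 and 11.05 in controls (−0.40 ± 0.25, limma adjusted p = 0.54). Panx3 read 10.66, 10.93 and 11.15 in mutants, against 11.37, 11.24 and 11.38 in controls (−0.41 ± 0.29, limma adjusted p = 0.591). Every mutant array was lower than every control array for these 3 genes, without passing the test. That test uses a single spread per gene, shared by the 8 groups, and the groups differed in spread. Omd had SDs of 0.11 and 0.06 in mutant and control distal mandibles. In mutant distal and control proximal maxillae its SDs were 0.58 and 0.56. Its SE of 0.25 is therefore wide for the mandible groups and narrow for those maxilla groups. Alpl did not overlap in the other direction, at 11.49, 11.44 and 11.54 in mutants, against 11.41, 11.41 and 11.20 in controls (0.15 ± 0.20). The 4 genes without overlap compare with 22% of all genes. Ibsp, Dmp1, Phex and Ifitm5 overlapped, between −0.53 and −0.21. Ibsp was low in 1 mutant distal mandible array, with 12.98, 12.09 and 12.90 in mutants, against 12.86, 12.70 and 13.03 in controls.

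In the distal maxilla all 8 values were positive, with a median of 0.28 against −0.01 over all genes, and all 8 overlapped, where 11.6% of all genes did not. The largest were Phex (0.98 ± 0.53, 95% interval −0.13 to 2.10) and Ifitm5 (0.74 ± 0.40, −0.10 to 1.57), both at a limma adjusted p = 0.622. Ifitm5 read 11.67, 10.50 and 11.76 in mutant distal maxillae, against 11.28, 9.81 and 10.63 in control distal maxillae. Phex read 11.02, 9.02 and 10.54 in mutants, against 9.95, 8.39 and 9.28 in controls. In both genotypes array 2 was the lowest of its group for these genes. Mutant distal maxilla 1, the highest in Phex, had a muscle list mean of 1.22, against −2.71 and −1.98 in its group mates. Its cartilage list mean was −2.52, against 0.39 and 0.46. By genotype 0 of 19 muscle and 0 of 16 cartilage markers passed there, where 0.195% of all genes did (limma). The part of these tissues in the values was not tested. Dmp1 stood at 0.71 ± 0.54, while Sp7 (0.06), Alpl (0.05) and Omd (0.01) lay near 0, with 95% intervals that stayed between −0.51 and 0.53.

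In the proximal maxilla 3 of the 8 were above and 5 below 0, with a median of −0.14 against 0.01 over all genes. All 8 overlapped between genotypes, where 36.2% of all genes did not. Phex had the largest value. It read 10.30, 10.22 and 9.24 in mutant proximal maxillae, against 9.46, 8.88 and 7.53 in control proximal maxillae. The difference was 1.30 ± 0.53 (2.45-fold, 95% interval 0.18 to 2.41, limma adjusted p = 0.0881). It passed with array weights (1.89, limma adjusted p = 0.00103) and without mutant proximal maxilla 3 (1.63, adjusted p = 0.0413), and it was 0.75 without control proximal maxilla 3 (limma adjusted p = 0.38). Leaving out together the 3 maxilla arrays with the lowest nasal list means, mutant distal 1 (−0.09) and mutant proximal 1 and 2 (−0.85 and −0.50), a choice made with earlier results known, gave 0.62 (limma adjusted p = 0.811), with 1 mutant proximal maxilla array left, assumed to vary like the rest. Panx3 had the most negative value, −0.52 ± 0.29 (−1.12 to 0.08, limma adjusted p = 0.21), with 10.20, 9.98 and 9.97 in mutants, against 10.83, 10.83 and 10.04 in controls. Averaged over the 4 regions, Phex stood at 0.66 ± 0.26 (0.04 to 1.28, limma adjusted p = 0.273), and the other 7 ranged from −0.09 to 0.33.

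Whether the genotype effect differed between parts of the jaw was tested directly. Between the mandible and the maxilla 0 of 8 passed, where 8.26% of all genes did. Between the proximal and the distal ends 0 of 8 passed, where 0% did (limma, 0 of 8 at an unadjusted p under 0.05 in both). At that unadjusted level 3233 of all genes tested passed between the jaws and 982 between the ends. Within the mandible all 8 differences of the effect, proximal minus distal, were positive, from 0.02 for Alpl to 1.43 ± 0.75 for Phex, with a median of 0.63 against −0.07 over all genes. None of them passed, as for 0% of all genes (limma, 1 of 8, Omd, at an unadjusted p under 0.05, where 1025 of all genes tested did). Within the maxilla 7 of the 8 were negative, with a median of −0.44, and none passed, where 0.00781% of all genes did (limma). At an unadjusted p under 0.05 it was 0 of 8 there, where 1360 of all genes tested passed. The comparisons within each jaw were added after the data had been seen.

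Calls by genotype in the other bone lists of the mandible are read against the share of all genes that passed. It was 4.34% in the proximal and 0.742% in the distal mandible (limma). Of 20 matrix genes 0 passed in the proximal mandible (limma, 1 at an unadjusted p under 0.05), where Kazald1 stood at 0.62 (adjusted p = 0.209) and Serpinh1 at 0.14 (adjusted p = 0.296). In the distal mandible Cthrc1, a secreted protein of matrix-forming cells, fell by 0.63 (limma adjusted p = 0.043). Among mineral handling genes the phosphate transporter gene Slc20a1 fell in the proximal mandible by 0.40 (adjusted p = 0.0132), and of the osteocyte list Tnfrsf11b, the decoy receptor that restrains osteoclasts, rose by 1.38 (adjusted p = 0.0219, limma). Of 23 signalling genes 3 rose in the proximal mandible, Tgfb2 (0.69, limma adjusted p = 0.000163), Bmp2 (0.47) and Tgfbr2 (0.32), and Tgfb2 also rose in the distal mandible (0.54). None of the 15 transcription factor genes passed in either mandible end (1 proximal and 3 distal at an unadjusted p under 0.05), with Cbfb, the partner of runt domain factors, at −0.15 (limma adjusted p = 0.154) and −0.19 (0.132) in the proximal and distal ends.

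In the proximal maxilla, where 23.3% of all genes passed, these lists moved in both directions. Of 20 matrix genes 4 rose and 4 fell, with Mmp13 at −2.86, Col5a1 at 0.92, Kazald1 at −0.81 and Fap at 0.78 (limma). Of the mineral handling genes Mgp (−1.60, an inhibitor of calcification), Entpd5 (−1.48) and the pyrophosphate transporter gene Ank (−0.76) fell and Pth1r rose (0.70). Of the osteocyte genes Npr3 (1.75) and Cd44 (1.08) rose and Tnfrsf11b fell (−1.41). Transcription factor genes split into 4 that rose and 3 that fell, led by Twist2 (2.97) and Foxc1 (−1.49). Signalling genes split into 5 that rose and 2 that fell, led by Tgfbr3 (1.82) and Igf1 (0.85). In the distal maxilla none of the 5 lists had a gene past the threshold (limma). At an unadjusted p under 0.05 there were 1 matrix, 2 mineral handling, 0 osteocyte, 1 transcription factor and 5 signalling genes. Of all genes tested, 1177 passed at that unadjusted level there.

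Markers of other tissues moved with genotype in the same pieces. Of all genes, 23.3% passed by genotype in the proximal maxilla, 4.34% in the proximal mandible and 0.742% in the distal mandible (limma). In the proximal maxilla list means were −0.85 to 2.08 in mutants and 2.69 to 2.82 in controls for nasal markers, with 7 of 10 lower. For muscle markers they were −0.16 to 2.03 in mutants and −1.99 to −0.80 in controls, with 12 of 19 higher, and for cartilage markers −2.79 to 0.80 and 0.38 to 1.77, with 10 of 16 lower. Macrophage list means there were 0.20 to 1.05 in mutants and −0.39 to −0.34 in controls, with 9 of 10 markers higher. In that region 7 of 8 neuron markers were lower and 5 of 9 endothelial markers higher. Of 11 epithelial markers 6 were higher and 4 lower. In the mandible cartilage list means were 0.91 to 1.56 in mutant and −1.30 to 0.83 in control proximal ends, and −2.28 to 0.29 in mutant and −0.29 to 1.03 in control distal ends, with 0 of 16 past the threshold in either (limma, 0 proximal and 6 distal at an unadjusted p under 0.05). Muscle list means were 0.25 to 0.80 in mutant and 0.79 to 2.24 in control proximal mandibles, and −0.59 to 0.28 in mutant and 0.80 to 1.63 in control distal mandibles, with 1 of 19 lower in each, Ckm. Tendon list means did not overlap in either mandible end, at −0.36 to −0.01 in mutant and 0.92 to 1.07 in control proximal ends, and −0.66 to −0.47 in mutant and 0.40 to 0.91 in control distal ends. Of 6 tendon markers 3 were lower in each end, with Scx at −1.39 and −1.28 in the proximal and distal ends (limma). Osteoclast list means were 1.11 to 1.33 in mutant and 0.56 to 1.15 in control proximal mandibles. Their part in the values of the mineralisation genes was not tested.

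The 8 genes varied together. Over the 24 arrays, Pearson's r between 2 of them ranged from 0.594 (Phex and Omd) to 0.980 (Sp7 and Panx3) in 28 pairs. These arrays share regions, and pieces may share embryos, so r is given as a description. With the group means taken out, r ranged from 0.446 (Dmp1 and Omd) to 0.932 (Sp7 and Alpl). After that step Dmp1, Phex, Ifitm5 and Ibsp had values of 0.81 to 0.90 among themselves. Ifitm5 lay in that range with Panx3 (0.85) and Sp7 (0.82) as well, so these genes did not form a separate set. Omd had 0.45 to 0.51 with Dmp1, Phex and Ibsp, 0.65 with Ifitm5, 0.70 with Panx3 and 0.80 to 0.82 with Alpl and Sp7. Deviations were larger in the maxilla. For the mean of the 8 genes they ran from −0.74 to 0.53 in maxilla arrays and from −0.20 to 0.29 in mandible arrays. The r values of deviations therefore lean on the maxilla arrays.

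**Figure D4:**
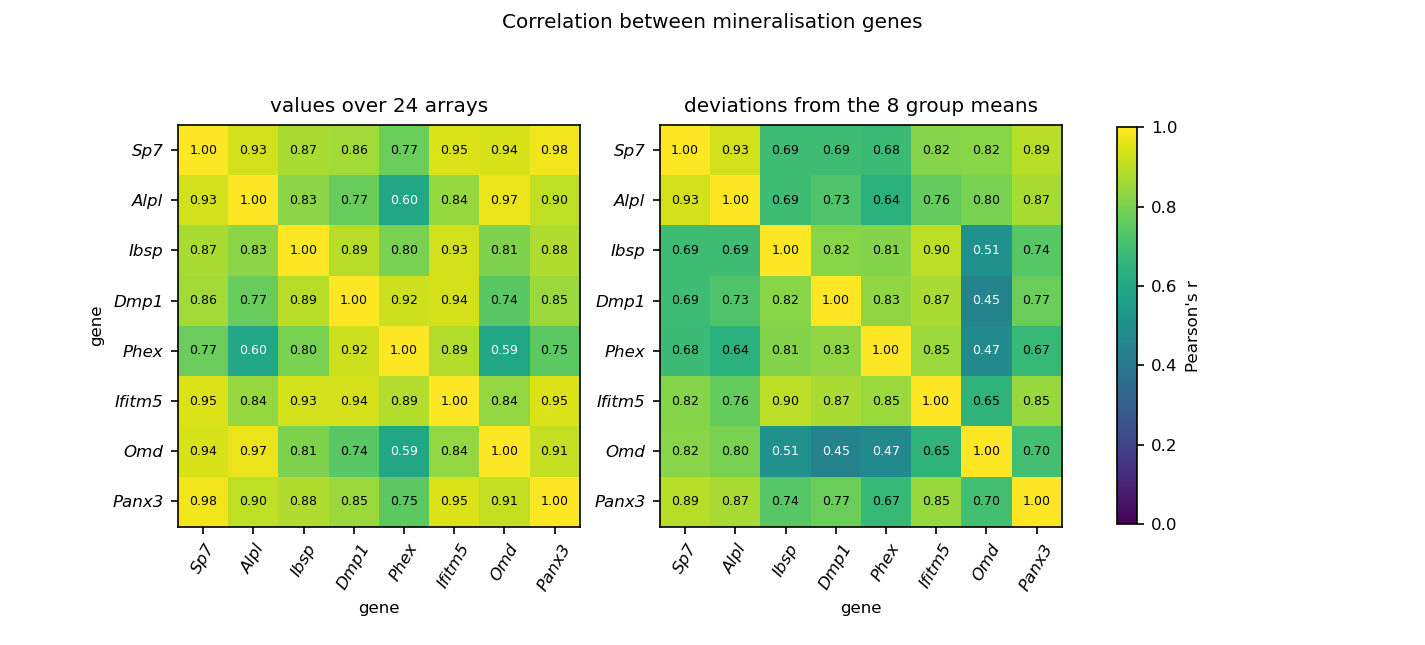
Pearson's r between each pair of the 8 genes over 24 arrays (left) and for deviations from the 8 group means (right), with r printed in each cell and coded by colour from 0 to 1. The lowest values on the right are those of Omd with Dmp1, Phex and Ibsp.

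The mean of the 8 genes, centred on all arrays, was 1.69, 1.44 and 1.69 in mutant proximal mandibles, against 1.49, 1.11 and 1.00 in control proximal mandibles. It was −0.46, −0.77 and −0.59 in mutant distal mandibles, against −0.33, −0.37 and −0.30 in control distal mandibles. In the distal maxilla it was 0.38, −0.56 and 0.71 in mutants, against 0.26, −0.72 and −0.17 in controls. In the proximal maxilla it was −0.56, −0.90 and −1.28 in mutants, against −0.50, −0.65 and −1.62 in controls. The maxilla groups thus differed more among their own arrays than the genotypes did from each other.

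The genes most like the mean of the 8 over the 24 arrays were Slc8a3 (r = 0.976), Col22a1 (0.972), Smpd3 (0.971), Col24a1 (0.971), Sgms2 (0.970), Cercam (0.963), Slc13a5 (0.962) and Timp1 (0.960). On deviations from the group means they were Col24a1 (0.958), Sgms2 (0.945), Slc13a5 (0.927), Smpd3 (0.927), Slc8a3 (0.912), Acp5 (0.901), Insc (0.900) and Col22a1 (0.897). Thus 6 genes were in both sets, of which the set on deviations leans on the maxilla arrays. Col24a1 and Col22a1 encode collagens, Smpd3 and Sgms2 enzymes of sphingomyelin metabolism, Slc13a5 a citrate transporter, Timp1 an inhibitor of metalloproteinases and Acp5 the acid phosphatase of osteoclasts.

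Other probe sets of the same genes were read as a check on the measurement. Ibsp has 2, Dmp1 3, Panx3 3 and Phex 2, and none of the 12 probe sets tested passed in a genotype comparison of a region (limma). The other 2, dim ones of Phex and Panx3, were not tested. The dimmer Ibsp probe set, with a mean of 11.6, gave −2.04 (limma adjusted p = 0.0176) in the control mandible, distal minus proximal. The brighter one at 13.0 gave −0.82. Between the proximal ends they gave 2.47 (limma adjusted p = 0.000695) and 1.13 (0.0268). Thus Ibsp passed along the mandible on 1 of its 2 probe sets, and between the proximal ends on both. The 3 Dmp1 probe sets lay between −2.93 and −2.70 along the mandible and between 2.65 and 2.93 between the proximal ends. Of them, 2 have suffixes that mark probes shared with other transcripts, and the Dmp1 probe set used is among these 2. The Panx3 probe set used has such a suffix as well. The dim Panx3 probe sets, with means of 6.31 and 5.67, gave −0.01 and −0.16 for mutant minus control in the proximal mandible, where the bright one gave 0.32. The dim Phex probe set, with a mean of 5.09, was not tested and gave 0.48 in the proximal mandible and 0.09 in the proximal maxilla, for mutant minus control.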

How the data were processed

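RNA of 24 samples was measured on Affymetrix Mouse430_2 arrays, and the deposited values are log2 signals that the authors made with RMA in Partek 6.6, per the submitters' processing notes. The sources used here do not give the RMA settings or the annotation release. RMA puts all arrays on 1 distribution, so a shift shared by most genes would be removed. The table holds 45101 probe sets, of which 64 are array controls, 34945 had 1 gene symbol, 932 had several and 9211 had none, and 0 columns belonged to no listed sample. Each gene was represented by its probe set with the highest mean, and genes above the array median in at least 3 of 24 arrays were tested.

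One limma fit (3.58.1, in R 4.3.3) over the 8 groups gave each comparison, with Benjamini-Hochberg adjustment over 12811 genes and a threshold of 0.05. The fit uses a single spread per gene, shared by the 8 groups, also where groups differed in spread. The average genotype effect used means over regions by genotype and number. Intervals are 95% intervals of that fit, and errors are SE for differences and SD for groups. The scripts were first tested on simulated data. Every member is named, and from each list of other genes up to 4 past the threshold with the largest changes, or, where none passed, up to 2 with the lowest p. The 8 genes most like the members were ranked by Pearson's r with the members' mean. The members and lists were chosen with earlier results of these data known.

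Replicate numbers are shared between groups. Deviations from group means correlated above 0.1 for every number in both mandible genotype comparisons (lowest r 0.151), both comparisons of control ends (lowest 0.110) and the proximal control jaws (lowest 0.203), so those pieces were taken as paired by number. This failed in both maxilla genotype comparisons and the distal control jaws. The fit of the 8 groups treated all arrays as independent, also those taken as paired. Its p-values, SEs and intervals therefore do not use the pairing, and the replicate block was run only as an alternative. Alternatives were no filter, the mean of probe sets, the replicate block, quantile normalization, array weights, fewer arrays in the fit and leaving out arrays. Runx2 and Spp1 were not analysed here.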

Additional observations from a re-analysis of the deposited data

Results flagged for a closer look

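Omd stood out because its genotype values lay apart in opposite directions at the ends of the mandible. All 3 mutant distal mandibles were below all 3 controls (10.50, 10.72 and 10.59 against 11.03, 10.93 and 11.05), and all 3 mutant proximal mandibles were above all 3 controls (11.99, 12.14 and 12.26 against 11.87, 11.67 and 11.67). The difference of the effect, proximal minus distal, was 0.793 ± 0.351 (SE, 95% interval 0.06 to 1.53). It did not pass after adjustment (limma, unadjusted p = 0.0363, adjusted p = 0.605).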

How the results depend on the processing

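None of the calls on the 8 genes changed direction under any alternative run. In the proximal maxilla genotype comparison 1 of the 8 genes, Phex, passed in place of 0 with the replicate block (1.30, limma adjusted p = 0.048) and with array weights (1.89, adjusted p = 0.00103), and leaving out single arrays gave 0 to 1. Along the control maxilla 4 in place of 2 passed with array weights and 0 with only the 6 arrays compared. Leaving out single arrays gave 2 to 3 genes there, 5 to 7 along the control mandible and 7 to 8 between the proximal control jaws. With the replicate block 6, 3 and 8 genes passed along the control mandible, along the control maxilla and between the proximal jaws, and the block changed no other call than those of Phex and, along the control maxilla, Sp7. Along the control mandible Omd passed with array weights (limma adjusted p = 0.0308), with 6 arrays (0.00632) and without mutant distal maxilla 3 (0.0399), and Ibsp with 6 arrays (0.014). Along the control maxilla Sp7 (0.0011) and Dmp1 (0.0237) passed with array weights, and Sp7 also without control proximal maxilla 2 (0.0303), mutant distal maxilla 2 (0.0266), mutant distal maxilla 3 (0.034) or mutant proximal maxilla 3 (0.0441). Over all genes, array weights gave 1779 in place of 740 calls along the control mandible, 2859 in place of 1079 along the control maxilla, 4981 in place of 1129 between the distal control jaws, and 984, 564, 1693 and 6205 in place of 95, 25, 556 and 2984 in the distal mandible, distal maxilla, proximal mandible and proximal maxilla genotype comparisons. With 6 arrays these last 3 were 1, 162 and 761, and 269 along the control maxilla. The replicate block gave 80 in place of 25 calls in the distal maxilla, 2120 in place of 1129 between the distal control jaws and 1997 in place of 1058 for the difference between jaws, where numbers did not pair all pieces. Leaving out the 3 mutant maxilla arrays of lowest nasal list mean gave 159 calls in the proximal maxilla, 16 in the distal maxilla, 354 and 915 in the distal and proximal mandible and 67 for the difference between jaws. Quantile normalization gave 40 calls in the distal maxilla. For the difference of the effect between ends, array weights gave 1140 calls in place of 0 on average over jaws, 80 in place of 0 within the mandible and 2414 in place of 1 within the maxilla. The averaged effect called 140 genes, 675 with array weights and 2521 as a contrast within the fit of 24 arrays. The cause of these shifts was not tested. Leaving out single arrays gave 303 to 924 calls along the control mandible, 116 to 1449 along the control maxilla, 389 to 1586 between the distal and 3307 to 4588 between the proximal control jaws, and 35 to 216, 125 to 748, 7 to 62 and 1363 to 3932 by genotype in the distal mandible, proximal mandible, distal maxilla and proximal maxilla. With 3 arrays a group, the SE of a regional difference had a median of 0.106 over all genes.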
